A study of Mus musculus with 20 samples.

Results

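The H3K27ac landscape of Lin- bone marrow cells that lack both p300 and TET2 was compared with that of WT cells. Peaks of the WT and the Ep300Δ/Δ Tet2-/- library were merged, and a merged region was called lost if no double-deficient peak overlapped it by at least 1 bp, gained if no WT peak did, and retained otherwise. This gave 31093 regions, of which 14049 were lost, 2376 were gained, and 14668 were retained. The H3K27ac lists of the 4 genotypes hold 95252 peaks in all. The peaks of the Ep300Δ/Δ and the Tet2-/- library were then read at each region, to see how often a single deficiency already showed the change. The WT mice were Ep300 fl/fl without Cre, the Ep300Δ/Δ mice were Mx1-Cre Ep300 fl/fl, the Tet2-/- mice were Ep300 fl/fl and germline null for Tet2, and the double-deficient mice were Mx1-Cre Ep300 fl/fl Tet2-/-. All 4 genotypes carried the floxed Ep300 alleles on the C57BL/6 background and all received poly(I:C), the interferon inducer that switches on Mx1-Cre, as young adults. Mx1-Cre acts in any cell that responds to interferon and not in blood cells alone, while Tet2 was absent from every cell of its mice from conception on. The same number of Lin- cells was stated for each library. Cells were taken 2 weeks after poly(I:C) by the general rule of the methods, which name no other time for these libraries, and whether several mice were pooled for a library is not stated. Each genotype has 1 H3K27ac library, so nothing here could be compared with the variation among mice of 1 genotype, and no P values are given.

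p300 is a histone acetyltransferase, encoded by Ep300, that is recruited by transcription factors and places acetyl groups on lysine 27 of histone H3, a mark of active promoters and enhancers. Its paralog CBP, encoded by Crebbp, can place the same mark. TET2 oxidizes 5-methylcytosine and thereby takes part in the removal of DNA methylation, and its loss is frequent in myeloid neoplasms. Lin- cells are the bone marrow cells left after removal of cells with surface markers of mature lineages, a fraction enriched for immature blood cells.

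The strongest region outside promoters of each of 3 classes is shown first, because these classes carry the comparison: lost regions that both single genotypes held as a peak, and gained regions that neither or both held. Each sequence is the 200 bp around the summit, the base with the highest signal, read from the plus strand of GRCm38 as distributed by RefSeq. Capitals mark matches to any of 10 short consensus sequences of blood transcription factors, here only MYB (AACNGNC).
Lost, in both single genotypes, intron of Tbc1d5, chr17:50994107-50994306: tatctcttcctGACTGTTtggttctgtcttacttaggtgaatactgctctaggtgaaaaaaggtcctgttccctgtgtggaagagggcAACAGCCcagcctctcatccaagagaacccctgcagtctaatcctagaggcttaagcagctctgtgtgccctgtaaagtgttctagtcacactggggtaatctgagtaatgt
Gained, in neither single genotype, intergenic near Gm6216, chr1:12644693-12644892: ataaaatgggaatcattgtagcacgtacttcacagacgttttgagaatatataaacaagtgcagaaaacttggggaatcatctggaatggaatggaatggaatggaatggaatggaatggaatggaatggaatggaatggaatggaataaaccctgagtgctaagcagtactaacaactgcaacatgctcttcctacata
Gained, in both single genotypes, intergenic near Gm20539, chr2:18765892-18766091: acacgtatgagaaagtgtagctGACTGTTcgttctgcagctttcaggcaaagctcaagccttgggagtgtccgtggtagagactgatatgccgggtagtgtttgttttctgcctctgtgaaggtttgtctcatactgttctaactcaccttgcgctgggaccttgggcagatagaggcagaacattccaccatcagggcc
The Tbc1d5 window holds 2 matches to the MYB consensus, 1 on each strand, the Gm20539 window holds 1, and the Gm6216 window holds none. The window near Gm6216 contains 13 tandem copies of a 5-bp unit, and 42.5% of its bases are masked as repeats in the reference. No base of the other windows is masked.

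The H3K27ac lists were of unequal length. They held 29659 WT, 22727 Ep300Δ/Δ, 24539 Tet2-/-, and 18327 double-deficient peaks, and the double-deficient list was the shortest of the 4. Peak lists do not carry sequencing depth, which is therefore unknown, and a missing peak cannot be told apart from one under the detection limit, nor fewer acetylated cells from less acetylation per cell. The Ep300Δ/Δ list also held more weak calls, since 7.17% of its peaks had a deposited q above the stated 0.05, against 0.780% to 0.900% in the other lists. Chromosome Y carried 4 H3K27ac peaks in each list except that of Ep300Δ/Δ cells, which had none. The methods speak of mice of both sexes, and the part of donor sex in the results was not tested. Of 8 marker genes of Lin- progenitors, all had an H3K27ac region at the promoter in WT or double-deficient cells, whereas 6 of 7 markers of T and NK cells, 3 of 4 of mature B cells, and 6 of 7 of stroma and endothelium had none. Every region in the promoter windows of Ep300 and Tet2, 3 and 2 of them, was retained, and an intronic Tet2 region with a WT fold of 4.18 was lost and had no peak in any mutant list. An H3K27ac peak at a promoter does not check a deletion within the gene.

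Of the 28717 regions with a WT peak, 48.9% were lost in double-deficient cells (95% interval, 48.3% to 49.5%). Of the 17044 regions with a double-deficient peak, 13.9% were gained. Most lost regions already lacked a peak in a single deficiency. Among the 14049 lost regions, 7434 had a peak in neither single genotype (52.9%; interval, 52.1% to 53.7%), 2584 had a peak only in Tet2-/- cells (18.4%), and 1567 only in Ep300Δ/Δ cells (11.2%). The remaining 2464 had a peak in both single genotypes and disappeared only from the double-deficient list (17.5%; 16.9% to 18.2%). At least 1 single list lacked a peak at 82.5% of lost regions. In each single genotype alone, the peak was absent from 71.3% of lost regions in Ep300Δ/Δ cells (70.6% to 72.1%) and from 64.1% in Tet2-/- cells (63.3% to 64.9%). The same counts over all WT regions, the background for these shares, were 39.7% without an Ep300Δ/Δ peak and 34.8% without a Tet2-/- peak. All of these comparisons use the same WT library, so they are not independent of each other. Retained regions lacked an Ep300Δ/Δ peak in 9.42% and a Tet2-/- peak in 6.82% of cases, and 86.9% of them were present in all 4 genotypes. Absence from the 2 single lists went together in every class. Of lost regions without an Ep300Δ/Δ peak, 74.2% also lacked a Tet2-/- peak (73.3% to 75.1%), against 38.9% of lost regions that kept an Ep300Δ/Δ peak (37.4% to 40.4%). The corresponding shares were 69.3% and 40.9% of gained regions and 33.6% and 4.03% of retained regions.

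For gained regions, a peak in a single genotype is the change already seen. At least 1 single list had it at 50.4% of gained regions (48.4% to 52.5%), against 90.4% of all double-deficient regions. The corresponding share of lost regions was the 82.5% above, against 47% of all WT regions. The order of the 2 classes turned with only the stronger peaks of each list by fold, at 74.1% of gained (68.5% to 79.2%) and 61.1% of lost regions (59.3% to 62.8%). The corresponding shares of all regions of that strength were not computed, and the part of strength in this turn was not tested. Of 2376 gained regions, 1178 were found in neither single genotype (49.6%; 47.5% to 51.6%), 523 were already present only in Tet2-/- cells (22.0%), 276 only in Ep300Δ/Δ cells (11.6%), and 399 in both (16.8%). In all, 38.8% of gained regions already had a Tet2-/- peak (36.8% to 40.8%) and 28.4% an Ep300Δ/Δ peak (26.6% to 30.3%), against 85.6% and 81.9% of all double-deficient regions. These shares depended on peak strength. With only the stronger peaks of each list by fold allowed to be gained, 274 regions were gained, of which 25.9% had a peak in neither single genotype, 63.5% a Tet2-/- peak, and 46.7% an Ep300Δ/Δ peak. With −log10 q of at least 5, 15.2% of gained regions had an Ep300Δ/Δ peak.

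**Figure D1:**
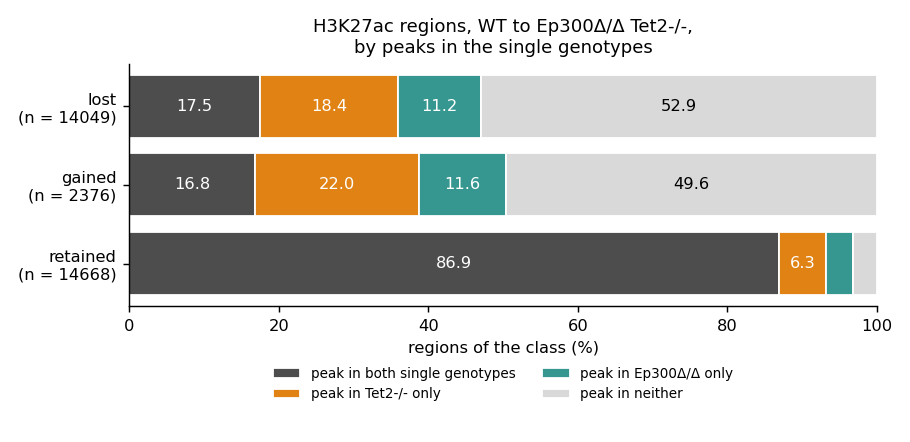
Share of lost, gained, and retained H3K27ac regions (%, horizontal axis) with a peak in both, one, or neither of the single genotypes, with n regions per class. Retained regions were mostly present in both single genotypes (86.9%), whereas 52.9% of lost regions had a peak in neither, the loss being seen in both, and 49.6% of gained regions had a peak in neither, the gain being seen in none.

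The lost regions were mostly weak WT peaks. When WT regions were ranked by the authors' fold enrichment over H3 and divided into 4 bins of equal size, loss took in 393 of the 7180 regions of the strongest bin (5.47%; 4.96% to 6.02%) and then 37.9%, 68.9%, and 83.4% of each weaker bin in turn. Gained regions were also weak in their own list: 0.587% of the strongest bin of double-deficient regions were gained (0.380% to 0.865%) and 30.6% of the weakest. The way the single genotypes shared the loss changed with strength. With only the stronger peaks of the WT list by fold allowed to be lost, 3134 regions were lost, of which 46.4% had no Ep300Δ/Δ peak, 40.0% no Tet2-/- peak, and 38.9% a peak in both. Among the 393 lost regions of the strongest bin, 290 kept a peak in both single genotypes (73.8%; 69.1% to 78.1%) and 18 in neither (4.58%). Among the 5988 lost regions of the weakest bin, 471 kept both peaks (7.87%) and 4042 neither (67.5%; 66.3% to 68.7%). In the second bin, 923 of 2720 lost regions kept both peaks (33.9%; 32.2% to 35.7%). A loss without a matching absence in a single genotype was thus the majority in the strongest bin alone, and in the 2 weaker bins most lost regions were absent from all 3 mutant lists. Retained regions went the same way with strength, with both peaks at 99.0% in the strongest bin and 50.5% in the weakest. Within a bin, lost regions still lacked single-genotype peaks more often than retained regions. In the second bin, 50.7% of lost regions had no Ep300Δ/Δ peak (48.8% to 52.6%), against 7.71% of retained regions (6.95% to 8.54%). For Tet2-/- peaks, the corresponding shares were 43.8% and 5.94%.

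**Figure D2:**
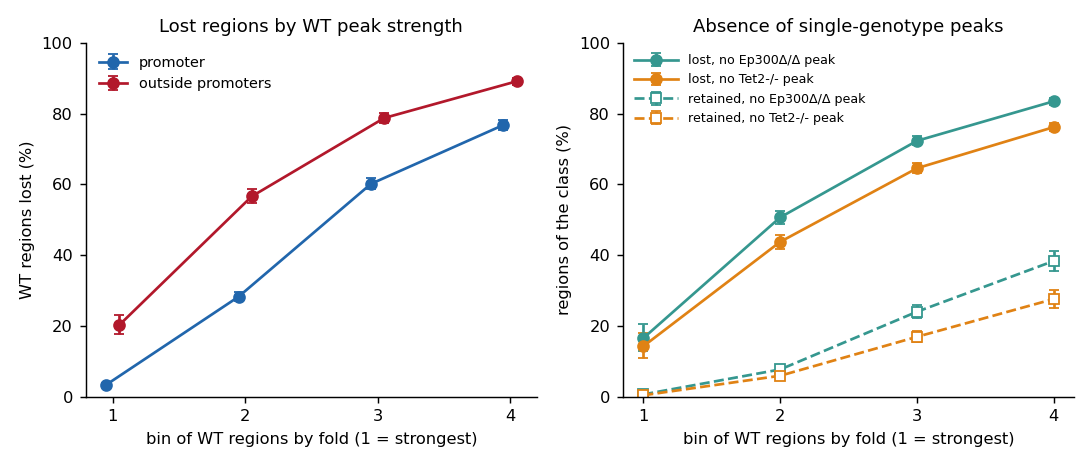
Left, percentage of WT H3K27ac regions lost in double-deficient cells, by bin of WT fold enrichment and by place; bars are exact 95% intervals. Right, percentage of lost (filled circles, solid) and retained (open squares, dashed) regions without an Ep300Δ/Δ or a Tet2-/- peak in the same bins. In each bin the share lost was higher outside promoters, and lost regions lacked single-genotype peaks more often than retained ones.

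The excess of losses over gains depended on the length of the lists. With the strongest 18327 peaks of each list, a choice that gives all lists the length of the double-deficient one and so by construction nearly balances losses and gains, 4917 regions were lost (27.7% of WT regions) and 4250 were gained (24.9% of double-deficient regions). The shares seen in single genotypes moved less: 63.9% of these lost regions had no Ep300Δ/Δ peak, 59.9% no Tet2-/- peak, and 20.8% a peak in both. Some losses were near misses of the 1-bp rule. A double-deficient peak lay within 500 bp of 2730 lost regions (19.4%; 18.8% to 20.1%) and within 100 bp of 301 (2.14%), and the median gap was 7541 bp. Among gained regions, a WT peak lay within 500 bp of 604 (25.4%; 23.7% to 27.2%). Retained regions were often narrower as well: 9035 of 14668 covered fewer bp in double-deficient than in WT cells (61.6%; 60.8% to 62.4%), with medians of 619 and 709 bp. Lost and gained regions were short, at medians of 369 and 339 bp.

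Loss was concentrated outside promoters, defined as 3000 bp on either side of an annotated transcript start. Of 10602 WT regions outside promoters, 72.5% were lost (7683 regions), whereas 35.1% of the 18115 promoter regions were (6366 regions). The difference held within each bin of WT strength: 20.3% (17.7% to 23.0%) against 3.36% (2.93% to 3.83%) in the strongest, and 89.1% (88.1% to 90.1%) against 76.8% (75.3% to 78.2%) in the weakest. It also held with lists of equal length, at 52.4% outside and 18.9% at promoters. Promoters made up 45.3% of lost regions (44.5% to 46.1%), 52.4% of gained regions (50.4% to 54.5%), and 80.1% of retained regions (79.4% to 80.7%). A further 32.9% of lost regions lay in introns, 19.3% between genes, and 2.47% in exons. Outside promoters, lost regions were intronic more often and intergenic less often than retained ones, with 60.1% (59.0% to 61.2%) against 53.6% (51.8% to 55.4%) in introns. The single genotypes also differed by place. At lost promoter regions, 24.3% kept a peak in both single genotypes (23.2% to 25.3%), against 11.97% of lost regions outside promoters (11.3% to 12.7%). A peak in neither was found for 44.7% and 59.7%, respectively. All WT regions differed by place in the same direction, with both peaks at 67.3% of promoter regions and 28.4% of the others, and neither peak at 17.1% and 45.4%. At the level of genes, 1356 of 10374 protein-coding genes with a WT promoter region lost every such region (13.1%; 12.4% to 13.7%), and 9018 kept at least 1.

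Sequence features separated lost from retained promoters more than they separated regions elsewhere. In the 200 bp around the summit, retained promoter regions had a median of 11 CpG dinucleotides and 59.5% GC, lost ones 4 CpG and 54.0% GC, and gained ones 5 CpG and 53.0% GC. Outside promoters, the medians were 3 CpG in all 3 classes and 51.0%, 50.5%, and 52.0% GC in lost, gained, and retained regions. Repeats masked in the reference covered over 50% of the window in 8.67% of lost (8.21% to 9.15%), 5.51% of gained, and 2.32% of retained regions (2.09% to 2.58%). These shares pool promoter and other regions, and the part of place in them was not tested. Most of the 10 consensus sequences were found about as often in lost as in retained regions outside promoters, counting both strands. RUNX (TGTGGTT) matched 4.92% of lost, 5.93% of gained, and 4.45% of retained regions, and 4.90% of all 11732 regions outside promoters. The MYB consensus, the loosest, matched 26.6% of lost, 27.9% of gained, and 25.2% of retained regions, with 26.4% among all. The AGATAAG consensus of the erythroid GATA factors matched 2.30% of lost and 2.33% of retained regions, with 2.34% among all. C/EBP (TTGCNNAA) matched 6.83% and 5.79%, with 6.58% among all, and AP-1 (TGANTCA) 6.21% and 6.13%, with 6.25% among all. The GC-rich SP/KLF consensus (GGGGCGGGG) was found in 0.521% of lost (0.372% to 0.708%) and 1.06% of retained regions (0.723% to 1.504%), with 0.682% among all. IRF (GAAANNGAA) was found in 6.81% of gained (5.41% to 8.44%), 4.56% of lost (4.10% to 5.05%), and 5.04% of retained regions (4.27% to 5.89%), with 4.89% among all. ETS (CCGGAAGT), NF-kB (GGANTTTCC), and CTCF (CNAGNGGGC) matched 0.312%, 0.690%, and 2.42% of lost and 0.651%, 0.651%, and 3.08% of retained regions, with 0.418%, 0.699%, and 2.57% among all. At promoters more of the sequences differed between the classes. The AGATAAG consensus was found in 1.87% of lost (1.55% to 2.23%) and 0.868% of retained promoter regions (0.708% to 1.05%), with 1.24% of all 19361 promoter regions. RUNX matched 3.82% and 2.34%, with 2.89% of all, AP-1 4.35% and 3.08%, with 3.61% of all, and C/EBP 5.45% and 4.57%, with 5.06% of all. Among gained promoter regions, RUNX matched 3.29%, AP-1 4.74%, and C/EBP 7.70% (6.29% to 9.33%). ETS and SP/KLF were more frequent in retained promoter regions, at 0.503% of lost and 1.31% of retained for ETS and 1.65% and 2.39% for SP/KLF, with 0.997% and 2.11% of all. These differences go with the higher GC content of retained promoters, and its part in them was not tested.

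Most lost regions outside promoters kept their H3K4me1 peak. H3K4me1 marks enhancers whether they are active or not. Of 7683 lost regions outside promoters, 5908 carried an H3K4me1 peak in both WT and double-deficient cells (76.9%; 75.9% to 77.8%), 805 in WT alone (10.5%), and 246 in double-deficient cells alone (3.20%). Of 2919 retained regions outside promoters, 2571 carried it in both (88.1%; 86.8% to 89.2%). Read in each genotype, 87.4% of these regions had an H3K4me1 peak in WT, 79.2% in Ep300Δ/Δ, 84.4% in Tet2-/-, and 80.1% in double-deficient cells. Both lists from Ep300-deleted mice were thus lower than both lists from Ep300-intact mice, by a few percent of regions. H3K4me1 lists were likewise shorter in these genotypes, 90738 and 93465 peaks against 107392 in WT and 98069 in Tet2-/- cells. Between WT and double-deficient cells, gained regions went the opposite way. H3K4me1 was present at 63.7% of those outside promoters in WT (60.8% to 66.5%) and at 74.0% in double-deficient cells (71.3% to 76.5%). The share was 65.8% in Ep300Δ/Δ and 68.6% in Tet2-/- cells. Most gained regions therefore lay where WT cells already had this mark. Retained regions outside promoters also had H3K4me1 more often in double-deficient cells alone (4.62%) than in WT alone (2.36%). H3K4me3 is a mark of active promoters. Of 6366 lost promoter regions, 3569 kept an H3K4me3 peak in both genotypes (56.1%; 54.8% to 57.3%), 450 had it in WT alone (7.07%), and 2288 had it in neither (35.9%). Outside promoters, 1269 lost regions had an H3K4me3 peak in WT, of which 711 had it in double-deficient cells too and 558 did not. Among retained promoter regions 94.8% had the mark in both genotypes, and among gained ones 73.9% did.

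**Figure D3:**
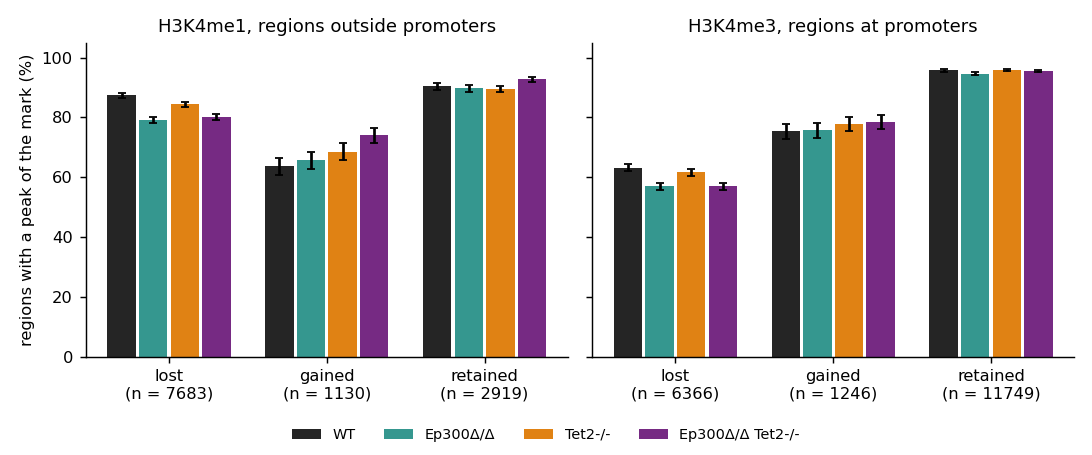
Percentage of lost, gained, and retained H3K27ac regions with an H3K4me1 peak (left, regions outside promoters) or an H3K4me3 peak (right, promoter regions) in each of the 4 genotypes; error bars are exact 95% intervals over n regions. H3K4me1 was lower at lost regions in both Ep300-deleted genotypes (79.2% and 80.1%) than in WT (87.4%), and highest at gained regions in double-deficient cells (74.0%).

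The strongest regions of each class show these patterns one by one. Folds are given within each list and describe how far a peak stood above the H3 library there; they are not scaled between libraries, so a higher or lower fold in another list is no measured change. The strongest lost region outside promoters that was present in both single genotypes lay in an intron of Tbc1d5, a regulator of endosomal traffic, with a fold of 24.7 in WT, 11.6 in Ep300Δ/Δ, 14.1 in Tet2-/-, and no peak in double-deficient cells. An intronic region of Rin3, a Rab5 regulator, had folds of 24.4, 4.37, and 7.30 in the same order, and one of Alox5ap, which serves leukotriene synthesis, 19.95, 9.05, and 9.18. Intronic regions of Fndc3b and Fam107b completed the 5 strongest, at WT folds of 19.4 and 19.3. All 5 kept an H3K4me1 peak in double-deficient cells. Strong lost regions that neither single genotype held were weaker, and 4 of them had WT folds from 13.6 to 17.0. They lay in an intron of Gsr, the gene of glutathione reductase, between genes near Gm47216, in an intron of Syn3 with the start of Gm15990 nearest, and in an exon of Lmnb1, the gene of lamin B1. The region at Gsr also lost its H3K4me1 and H3K4me3 peaks in double-deficient cells, whereas that at Lmnb1 kept H3K4me1.

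Among gained regions outside promoters, the strongest present in both single genotypes was intergenic near Gm20539, with a fold of 17.7 in double-deficient, 8.51 in Tet2-/-, and 3.05 in Ep300Δ/Δ cells. An intron of Snd1 followed with 15.9, 21.4, and 6.04. Introns of Pbx3, a homeobox cofactor, and Eya2, a transcriptional coactivator, had double-deficient folds of 12.1 and 11.5, and both carried H3K4me1 and H3K4me3 peaks in WT cells already. The strongest gained regions found in neither single genotype reached folds of only 8.83 to 9.87. The first of them is the repeat-rich window near Gm6216, and others lay near Eda2r and in an intron of Sox6.

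The strongest lost promoter region was at Ripor2, with folds of 31.5 in WT, 11.4 in Ep300Δ/Δ, and 5.51 in Tet2-/- cells. Jak1, the kinase of interferon and cytokine receptors, lost a 279-bp region 142 bp from a start, with folds of 27.1, 12.7, and 11.8 in the same order. The promoter windows of Jak1 lost 3 regions in all, but they kept 2 and gained 1. Stau1, Ythdf2, and Zfp131 followed with WT folds of 25.9, 24.7, and 24.6. All 5 regions had a peak in both single genotypes and kept their H3K4me3 peak in double-deficient cells. The strongest gained promoter regions included 2 at small nuclear RNA genes, Gm22068 and Rnu1a1, which belong to multicopy families and are therefore uncertain, and those of 4930481A15Rik and Slain1. The gained region nearest to Mir223, a microRNA gene active in granulocytes, lay 1130 bp from its start, in an exon of the antisense gene F630028O10Rik on chromosome X, with a fold of 16.6 in double-deficient cells, no H3K27ac peak in the other genotypes, and an H3K4me3 peak in WT as in double-deficient cells.

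Gene lists were read through the regions at a member's promoter or nearest to its start, and compared with the 48.9% lost over all WT regions, or with the 35.1% at promoters and 72.5% elsewhere. Among the 14 lists that are not cell type markers, neutrophil granule genes lost the largest share. Around 14 of these genes, 25 of 32 WT regions were lost (78.1%; 60.0% to 90.7%) and 1 was gained, and 18 of the 25 had a peak in neither single genotype, where 52.9% of all lost regions did. At promoters the list lost 19 of 25 regions (76.0%; 54.9% to 90.6%), and elsewhere 6 of 7. Among all promoter regions, 60.1% and 76.8% were lost in the 2 weaker bins of WT fold. The part of peak strength in the share of this list was not tested. Ltf, Lcn2, S100a8, and Mmp8 had no region in WT or double-deficient cells. Elane, which encodes neutrophil elastase, lost its 4 promoter regions, with WT folds up to 5.48. Prtn3, the proteinase 3 gene beside it, lost 5 of 6 regions. A region in the promoter window of both genes was counted once in the list. Camp lost 3 of 3, and Ngp, S100a9, and Mmp9 also lost their promoter regions. Mpo, the myeloperoxidase gene, lost 3 promoter regions, kept 2, and had the only gained region of the list, and Ms4a3 kept its promoter region. Ctsg, which encodes cathepsin G, kept its 3 strongest regions and lost 4. The share depended on the peaks admitted. With −log10 q of at least 5, an alternative chosen after the data were seen, 19 of 23 regions were lost (82.6%; 61.2% to 95.05%), against 43.5% of all WT regions in that setting. With lists of equal length, 7 of 13 regions were lost (53.8%; 25.1% to 80.8%), an interval that includes the 27.7% of all WT regions in that setting.

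Cytokine receptor genes followed with 46 of 66 regions lost (69.7%; 57.1% to 80.4%), of which 25 had a peak in neither single genotype, near the share of all lost regions. Most of its regions lay outside promoters, where 34 of 43 were lost (79.1%; 64.0% to 89.96%), and 12 of 23 were lost at promoters (52.2%; 30.6% to 73.2%), so that both intervals include the share of all regions of the same place. Cxcr4 alone accounted for 17 of these losses and Tnfrsf1b, a TNF receptor, for 11. Csf1r and Csf3r, the receptors of M-CSF and G-CSF, lost every promoter region, 3 and 1, while Kit, the receptor of stem cell factor, lost none and gained 2 regions. With −log10 q of at least 5, 29 of 49 regions of this list were lost (59.2%; 44.2% to 73.0%), against the 43.5% of all. With lists of equal length, 15 of 34 regions of this list were lost (44.1%; 27.2% to 62.1%), and the interval includes the 27.7% of all WT regions. Megakaryocyte genes lost 4 of 15 regions (26.7%; 7.79% to 55.1%), an interval that includes the share of all regions. They gained 7 of 18 double-deficient regions (38.9%; 17.3% to 64.3%), against 13.9% of all. With −log10 q of at least 5, megakaryocyte genes had 4 gained and 9 retained regions, where 11.7% of all double-deficient regions were gained. With lists of equal length they had 11 gained and 7 retained regions, where 24.9% of all were gained. Intervals for these 2 settings were not computed. Pf4, which encodes platelet factor 4, had no WT peak and folds of 3.21 in Ep300Δ/Δ, 7.72 in Tet2-/-, and 8.20 in double-deficient cells. The promoters of Selp and Thbs1 likewise had regions only in the gained class. Genes of MHC and antigen presentation lost 4 of 14 regions (28.6%; 8.39% to 58.1%) and gained 4 of 14 double-deficient regions, and both intervals include the share of all regions. The gained ones included promoter regions of Cd74 and H2-Aa.

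In the other lists the interval also included the share of all regions. Stem and progenitor transcription factors lost 44 of 89 regions (49.4%; 38.7% to 60.2%), myeloid transcription factors 25 of 52 (48.1%), TNF and NF-kB genes 29 of 58, JAK-STAT genes 29 of 51 (56.9%), and Bcr-Abl and Ras genes 44 of 85 (51.8%). Erythroid genes lost 22 of 39 (56.4%), lymphoid genes 24 of 41 (58.5%), cell cycle regulators 23 of 47 (48.9%), and interferon-stimulated genes 8 of 18 (44.4%). Within the acetyltransferase, Tet, and Dnmt genes, 15 of 38 regions were lost (39.5%; 24.0% to 56.6%). Crebbp, which encodes CBP, lost its only region, a weak promoter peak with a WT fold of 4.57 that neither single genotype had. Tet1 and Dnmt3b had no WT region and gained 2 and 1 at the promoter, which neither single genotype had, with folds up to 9.02 and 4.62 in double-deficient cells. Hras lost its 2 regions, with WT folds up to 4.80. A region was given to the nearest start, and the gene that it acts on was not tested.

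**Figure D4:**
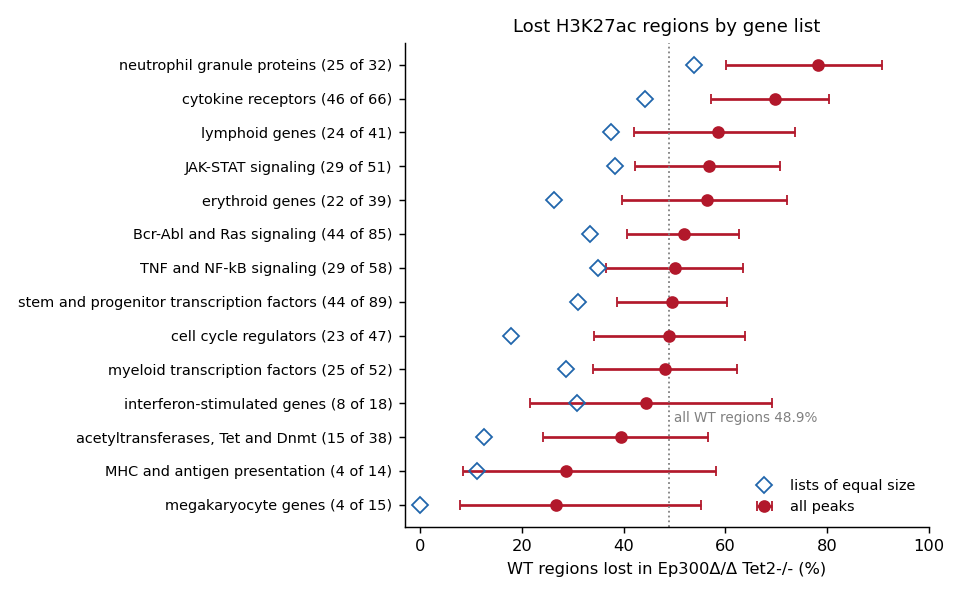
Percentage of WT H3K27ac regions lost in double-deficient cells around the genes of 14 lists, with exact 95% intervals (filled circles, all peaks; lost of all WT regions in brackets) and the same percentage with the 4 lists cut to equal length (open diamonds); the dotted line is the share of all WT regions lost with all peaks, 48.9%, which was 27.7% at equal length. For neutrophil granule genes and cytokine receptors the whole interval lies to the right of the line, and in the other 12 lists it crosses the line.

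Cxcr4 and Meis1, chosen for the map after their values were seen, went in opposite directions. Cxcr4, the chemokine receptor that holds progenitors in the marrow, had 19 WT regions nearest to its start, of which 17 were lost. At the promoter, the region over the gene (chr1:128590562-128592326) was retained, with folds of 30.7 in WT, 11.8 in Ep300Δ/Δ, 18.8 in Tet2-/-, and 19.9 in double-deficient cells. A region 22610 bp from the start was also retained, with folds of 22.8, 22.7, 18.9, and 9.02 in the same order. Of the 17 lost regions, 15 had a peak in no mutant list, 1 was kept in Tet2-/- cells, and 1 at the promoter was kept in both single genotypes. All 17 lost regions had an H3K4me1 peak in WT. Meis1, a homeobox factor of stem cells that is often active in leukemia, had mostly gains. In the gene or nearest to it, WT cells had 2 regions and double-deficient cells 12, of which 10 were gained. The retained promoter region at chr11:19013711-19017092 had folds of 5.76 in WT, 13.02 in Ep300Δ/Δ, 5.26 in Tet2-/-, and 23.0 in double-deficient cells. Of the 10 gained regions, 3 were already present in Ep300Δ/Δ cells alone, 1 in Tet2-/- cells alone, 2 in both, and 4 in neither.

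**Figure D5:**
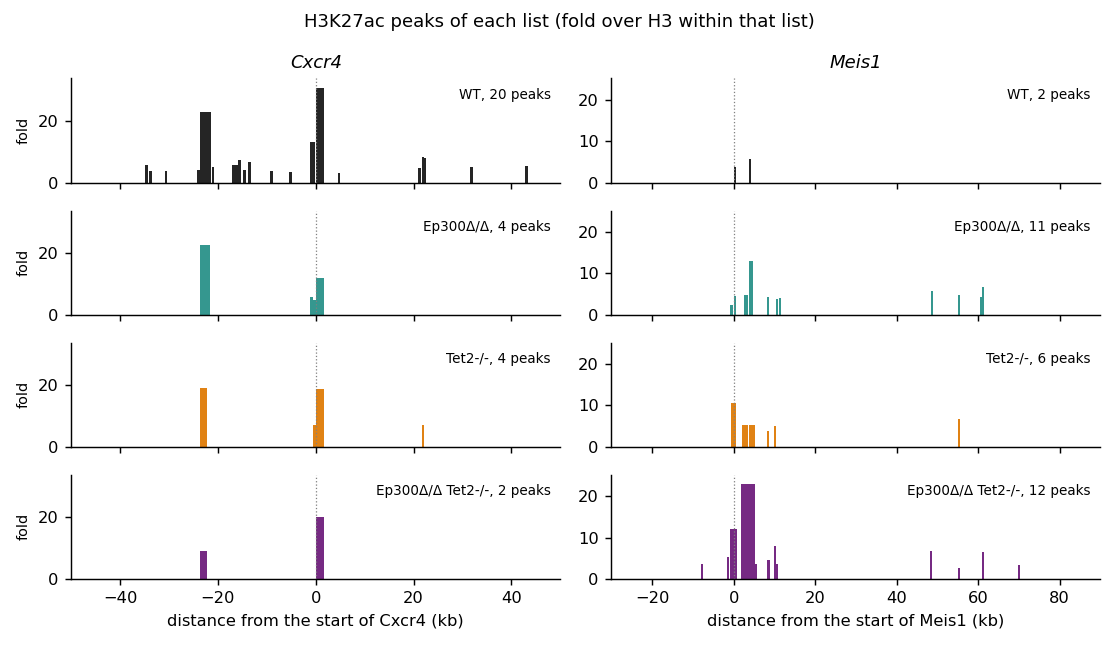
H3K27ac peaks of each genotype around Cxcr4 and Meis1; the horizontal axis is the distance from the start of the gene in kb, in the direction of transcription, and bar height is the fold of the peak within its own list, not scaled between lists. Peaks under 0.5 kb are drawn 0.5 kb wide. Around Cxcr4 the WT list held 20 peaks and the double-deficient list 2, and around Meis1 the WT list held 2 and the double-deficient list 12.

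Myb, which encodes a transcription factor of progenitors, kept 3 of its 5 WT regions and lost 2, all of them within the promoter window. The 3 retained regions had folds of 4.43, 8.401, and 13.5 in WT and of 3.75, 9.74, and 6.18 in double-deficient cells. Neither lost region had a peak in a single genotype. Notch1 had 7 WT regions in or nearest to the gene, of which 6 were lost. One of the lost regions had a peak in both single genotypes, 1 only in Ep300Δ/Δ, 2 only in Tet2-/- cells, and 2 in neither, and a further intronic region was gained that Tet2-/- cells shared. Runx1, a master factor of definitive blood formation, lost 15 regions in or nearest to the gene and retained 9, its 3 strongest among them, with WT folds of 14.5 to 21.4 for those 3. The genes nearest to the most lost regions were Foxp1 with 24, Sgms1 with 20, the antisense RNA Gm17088 in the Etv6 gene with 18, and Atp8b4 and Cxcr4 with 17 each. Foxp1, a forkhead factor, retained 14 regions and gained 2, and of its 24 losses 13 were absent from both single lists. The genes nearest to the most gained regions were Mbnl1 with 5 and 2610001A08Rik, Gm23058, Rreb1, and Tacc1 with 4 each. Mbnl1 also lost 7 regions, Rreb1 12, and Tacc1 1. Loss and gain met at some genes: 877 genes were nearest to both a lost and a gained region, of 7370 nearest to a lost one and 2123 nearest to a gained one. The share over all genes with a region was not computed.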

How the data were processed

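ChIP-Seq of H3K27ac, H3K4me1, and H3K4me3 was performed by the authors on Lin- bone marrow cells of 4 genotypes, with 1 library per genotype and mark, so all samples carry replicate number 1. Per the labels and the study's methods, reads were trimmed with cutadapt 1.15, aligned to mm10 with BWA 0.7.13, filtered, deduplicated with Picard, and cleared of blacklisted regions. Narrow peaks were called with MACS2 2.1.1.20160309 over an H3 library and kept where found in pseudo-replicates. The deposited lists give for each peak the authors' fold enrichment over H3 at the summit and its −log10 q-value. Both refer to a single library, so they served to order or threshold the peaks of that list. Folds of 1 region in several lists are shown side by side as a description and are not scaled between libraries. The 8 samples of other libraries were not analysed here.

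Regions were merged, and each list was intersected with them at 1 bp. Starts, exons, and introns came from GENCODE vM21 (GRCm38, the build of the files). A region was a promoter region if it overlapped the 3000-bp window of a start by at least 1 bp, which wider regions do more easily. Exon, intron, and intergenic were called at the region's center. Genes were assigned by nearest start, so that the nearest gene need not contain the region. Shares are given with 95% intervals (exact, Clopper-Pearson); these treat regions as independent and allow for counting error alone. Depth per library is unknown from peak lists. Named genes were Ep300, Tet2, Myb, Notch1, the members of the gene lists, the 5 strongest regions of each class, and the 5 genes nearest to the most lost and most gained regions. Some items that this rule names are not reported here. The members and lists were chosen with earlier results of these data known. Alternatives changed the overlap, the threshold, the list length, and the promoter definition. Python 3.11.15, pandas 2.3.3, scipy 1.17.1, and pysam 0.24.0 were used. On simulated lists, 10 of 10 counts equaled those of bedtools 2.31.1, and 494 of 494 nearest starts equaled a full search.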

Additional observations from a re-analysis of the deposited data

How the results depend on the processing

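No paired analysis was possible because each genotype has 1 library of each mark. Counting peaks within 500 bp as overlapping also joined neighboring WT peaks and left 8832 of 20898 WT regions lost (42.3%). Of these lost regions, 72.2% had no Ep300Δ/Δ peak and 62.1% no Tet2-/- peak. With −log10 q of at least 5, the shares of lost regions without an Ep300Δ/Δ peak, without a Tet2-/- peak, and with both were 82.8%, 60.0%, and 12.6%, and 15.2% and 45.4% of gained regions had an Ep300Δ/Δ or a Tet2-/- peak. With equal list lengths, 4917 regions were lost and 4250 gained, with 63.9%, 59.9%, and 20.8% for the lost shares in the same order. Of those gained, 35.9% had a Tet2-/- peak and 52.5% a peak in neither. With lost or gained restricted to the stronger part of each list by fold, 3134 regions were lost (46.4%, 40.0%, and 38.9%) and 274 gained, of which 46.7% had an Ep300Δ/Δ peak, 63.5% a Tet2-/- peak, and 25.9% neither. With q of at most 0.05, an alternative chosen after the data were seen, 74.5% of lost regions had no Ep300Δ/Δ peak and 16.0% had both peaks, while 24.5% of gained regions had an Ep300Δ/Δ peak and 51.6% neither. The promoter shares of lost, gained, and retained regions were 35.3%, 44.9%, and 76.5% with a window of 1500 bp, 38.4%, 43.5%, and 75.4% with protein-coding starts alone, and 50.2%, 56.7%, and 82.6% with equal list lengths. In these 3 settings retained regions still had the highest promoter share and lost regions the lowest. The causes of these shifts were not tested.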

Other observations

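Of all lost regions, 30.7% lay in runs of neighboring regions, as did 25.5% of all WT regions. Runs of at least 5 WT regions with gaps of at most 10000 bp, a definition chosen after the data were seen, numbered 1038 and held 7329 WT regions, of which 4311 were lost (58.8%). Of 7052 WT regions with no other within that gap, 3095 were lost (43.9%). In 59 runs every region was lost, the longest of them with 13 regions at Otulinl, 12 at Nhsl2, 8 each at Abcc4 and St3gal5, and 7 at Nedd9. In 19 runs none was lost, among them runs of 10 and 6 regions at histone gene clusters (Hist1h2ah and Hist1h2bl) and of 7 at Zeb2, a transcription factor gene. The runs with the most losses were at Cdk6, the gene of a cell cycle kinase, with 18 of 21 regions, Etv6 with 18 of 20, Tbc1d2b with 16 of 20, Tifab with 15 of 17, and Galnt6 with 14 of 17. How far strength and place account for the share lost in runs was not tested.

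Chromosome X lost a smaller share of its promoter regions than the autosomes, 25.8% (115 of 446; 21.8% to 30.1%) against 35.4% (34.7% to 36.1%). Outside promoters the shares were 65.8% (58.0% to 73.1%) and 72.6% (71.7% to 73.4%). The median WT fold of chromosome X regions was also higher than on the autosomes, 8.94 against 8.20 at promoters and 5.93 against 5.41 elsewhere. The parts of peak strength and donor sex in this were not tested.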
